A study of Mus musculus with 20 samples.

Results

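The genes described here encode enzymes that make triglyceride and the glycerol phosphate on which it is built: Pck1, Gpd1, Gpam, Agpat2, Lpin1, Mogat1, Dgat1 and Dgat2. They were chosen by name for their place in the pathway, with earlier results of these data known, and are 8 of the 25219 genes in the deposited table. Triglyceride is the lipid in which the adipocyte stores fatty acids, and each molecule carries 3 acyl chains on a glycerol backbone. The backbone enters as glycerol-3-phosphate, which adipocytes draw from glycolysis or make from pyruvate by glyceroneogenesis. Acyl chains are then added by glycerol-3-phosphate acyltransferase (GPAT) and lysophosphatidic acid acyltransferase (AGPAT), a lipin removes the phosphate to give diacylglycerol, and diacylglycerol acyltransferase (DGAT) adds the last chain.

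RNA from inguinal white adipose tissue (iWAT) and brown adipose tissue (BAT) of male mice on a mixed C57Bl/6 background was sequenced, with 5 libraries of each genotype, Control and Ai-α4KO, in either tissue. Ai-α4KO mice carried α4 flox/flox alleles and Adiponectin-CreERT2, a transgene that makes a tamoxifen-inducible Cre recombinase under the adiponectin promoter and so acts in adipocytes. Per the study's methods, Control mice had the floxed alleles without Cre, whereas their labels read WT. All mice received tamoxifen, 5 intraperitoneal injections of 100 mg/kg over 6 days from 2 months of age, and tissue was taken 1 week after recombination. The labels do not say whether the tissues came from the same mice, and p-values set a difference between groups against the spread among these libraries.

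The targeted gene, Igbp1, which encodes α4, lay between 57.5 and 76.6 CPM (read counts scaled for library size with TMM factors over all 20 libraries) in Control iWAT and between 10.1 and 11.1 in Ai-α4KO iWAT. In BAT it lay between 85.4 and 105 CPM in Control and between 13.7 and 25.2 in Ai-α4KO libraries. Library totals ran from 24023371 to 50384446 counts. Whole fat pads hold other cells than adipocytes, so several marker lists were summed in every library. The 8 adipocyte markers (Adipoq, Plin1, Plin4, Cidec, Fabp4, Lipe, Cfd and Retn) summed to 32222 to 43493 CPM in Control iWAT, 13018 to 18342 in Ai-α4KO iWAT, 23845 to 26440 in Control BAT and 13623 to 17164 in Ai-α4KO BAT. Of these 8 genes, 7 were called lower in iWAT and 5 in BAT. In bulk tissue, fewer cells of a type and less RNA per cell cannot be told apart.

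Other lists were counted in the same way, against 10.7% of all genes called lower and 11.3% called higher in iWAT, and 13.3% and 18.2% in BAT. All 7 macrophage markers were called higher in each tissue, with sums of 549 to 1079 CPM in Control and 2726 to 4315 in Ai-α4KO iWAT, and of 105 to 236 in Control and 1413 to 2729 in Ai-α4KO BAT. Of 6 brown fat markers, 5 were called lower in iWAT (sums of 125 to 926 against 18.04 to 41.8 CPM) and 3 in BAT (7876 to 12139 against 1447 to 3263 CPM). Of 6 skeletal muscle markers, 4 were called higher in BAT, where they summed to 762 to 7361 CPM in Control and 10225 to 34162 in Ai-α4KO libraries. Of 5 fibroblast markers, 1 was called higher in BAT (612 to 999 against 1199 to 1629 CPM) and none in iWAT (1270 to 2494 against 1242 to 3268 CPM). Liver markers stayed at or under 8.75 CPM in BAT and 10.1 in Ai-α4KO iWAT and reached 123 CPM in Control iWAT, where 1 of the 2 tested was called lower in Ai-α4KO, and Apob was at 0 in all 5 Control BAT libraries. B cell markers summed to 446 and 178 CPM in Control iWAT libraries 1 and 4 and to at most 12.01 CPM in every other library, and 1 of 5 tested was called lower in iWAT and 1 of 3 higher in BAT. Control iWAT library 4 and Ai-α4KO iWAT library 1 also held skeletal muscle markers, at 5767 and 3384 CPM, against at most 182 CPM in the other iWAT libraries. The part of these cell types in the values that follow was not tested, except that Control iWAT libraries 1 and 4 were left out together as an alternative chosen after seeing the data.

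The stretch in front of a gene's start site is shown for Pck1 and Gpam, an enzyme of the glycerol supply and the acyltransferase that opens the pathway, because these windows lie within 30 bases of the gene models counted and hold a match to a motif searched. The windows of Agpat2 and Mogat1 adjoin their gene models as well and are not shown, since they hold no match. RefSeq sequence on GRCm38.p6 was matched by symbol for 5 of the 8 genes, in 6 windows, and the 250 bases before the start were searched on both strands for 4 motifs. AGGTCA is the half-site that many nuclear receptors bind and was held by 4607 of 32851 RefSeq windows of this length. ACGTCA is part of the cyclic AMP response element and was held by 6.47% of the windows. CACGTG is an E-box and was held by 6.02% of them. TATAAA is a TATA box and was held by 12.4%. Capitals mark matches to the first and second motif. The Pck1 window is chr2:173152823-173153072 on the plus strand, and the Gpam window is chr19:55099478-55099727 on the minus strand, which starts 30 bases from the deposited model and lies within a longer Gpam transcript.
Pck1: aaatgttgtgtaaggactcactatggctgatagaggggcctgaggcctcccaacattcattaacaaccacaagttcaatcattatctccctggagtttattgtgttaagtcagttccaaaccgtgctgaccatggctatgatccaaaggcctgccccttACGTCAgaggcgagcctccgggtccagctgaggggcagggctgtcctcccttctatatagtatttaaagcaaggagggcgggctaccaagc
Gpam: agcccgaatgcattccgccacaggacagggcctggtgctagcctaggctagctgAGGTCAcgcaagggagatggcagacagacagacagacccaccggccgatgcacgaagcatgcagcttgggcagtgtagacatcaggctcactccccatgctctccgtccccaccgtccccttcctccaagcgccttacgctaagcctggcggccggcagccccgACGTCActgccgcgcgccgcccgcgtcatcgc
The Pck1 window holds ACGTCA with its first base 91 bases before the start. The Gpam window holds AGGTCA at 196 bases before the start, and the cyclic AMP motif ACGTCA at 32 bases. A window of Lpin1, whose start lies 21196 bases from that of the deposited model, holds AGGTCA at 74 bases, and a more distant window of Gpam holds none of the letters searched. These matches describe letters only. Dgat1, Dgat2 and Gpd1 are named without a window.

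In iWAT, all 8 genes were called lower in Ai-α4KO than in Control libraries when scaled by TMM, against 10.7% of the 14604 genes tested. With libraries scaled to the adipocyte markers, 2 of the 8 were still called lower, Pck1 and Gpd1, and the value of Dgat2 turned positive. A call needed an adjusted p below 0.01 together with a change of 2-fold or more in the quasi-likelihood test of edgeR, with p-values adjusted over all genes by the Benjamini-Hochberg method; SE is the standard error. The median log2 fold change was -2.10 over the 8 genes and 0.01 over all genes tested. The groups did not overlap for any of the 8, a pattern that 18.4% of all genes showed in the lower direction. In BAT, 7 of the 8 genes were called lower, against 13.3% of 14344 genes, with a median of -1.81 over the 8 and -0.03 over all genes. Under the adipocyte marker scaling 3 were still called lower there, Pck1, Gpd1 and Dgat2, and the values of Gpam, Dgat1 and Mogat1 turned positive. Without Control iWAT libraries 1 and 4, all 8 genes were still called lower in iWAT, with log2 fold changes from -3.54 for Pck1 to -1.20 for Dgat2. In BAT the exception by TMM was Mogat1, which passed the limit on p and missed the limit on fold. The groups did not overlap for 7 of the 8 in BAT, all but Agpat2, against 24.2% of all genes in that direction.

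**Figure D1:**
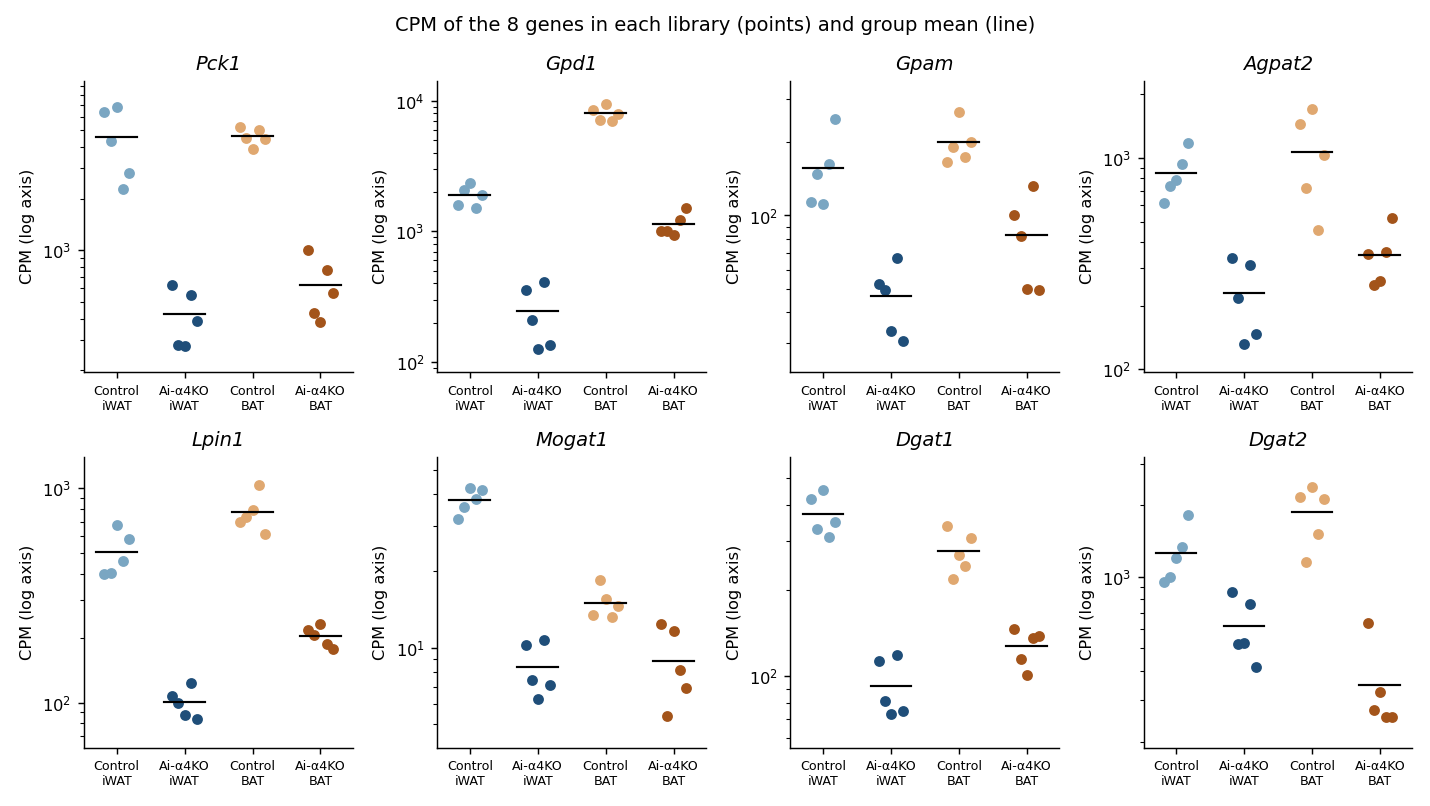
CPM of each gene (log axis) in the 5 libraries of each group, as points, with the group mean as a line. By TMM scaling every gene sat lower in Ai-α4KO than in Control iWAT without overlap, and in BAT only the Agpat2 groups overlapped; scaled to adipocyte markers, 2 of the 8 were still called lower in iWAT and 3 in BAT, and Dgat2 in iWAT and Gpam, Dgat1 and Mogat1 in BAT turned positive.

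Glyceroneogenesis starts from oxaloacetate, which Pck1, the cytosolic phosphoenolpyruvate carboxykinase (Entrez 18534, mm10 chromosome 2, 173153073 to 173159253), turns into phosphoenolpyruvate. Pck1 was at 6415, 4306, 6852, 2267 and 2828 CPM in Control iWAT libraries 1 to 5 and at 631, 280, 276, 550 and 386 CPM in Ai-α4KO iWAT libraries 1 to 5. Control libraries 4 and 5 were the lowest of their group and still lay well above every Ai-α4KO library. The log2 fold change was -3.42 (SE 0.378, adjusted p = 2.69e-05, edgeR), or 10.7-fold lower, the 63rd lowest of the 14604 genes tested. In BAT, Pck1 was at 5234, 4505, 3862, 4998 and 4462 CPM in Control and at 1004, 431, 381, 772 and 562 CPM in Ai-α4KO libraries. The Control BAT libraries were closer together than those of iWAT, and no library of the other group came near them. The log2 fold change there was -2.91 (SE 0.255, adjusted p = 1.5e-06, edgeR), or 7.53-fold lower.

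Gpd1, the cytosolic glycerol-3-phosphate dehydrogenase (Entrez 14555, chromosome 15, 99717593 to 99725007), reduces dihydroxyacetone phosphate to glycerol-3-phosphate. In iWAT it was at 1596, 2061, 2358, 1502 and 1912 CPM in Control and at 356, 209, 125, 409 and 136 CPM in Ai-α4KO libraries. The Ai-α4KO libraries split into 2 with higher values, 1 and 4, and 3 with lower values. The log2 fold change was -2.94 (SE 0.345, adjusted p = 3.96e-05, edgeR). Control BAT held 8507, 7102, 9502, 6947 and 7895 CPM and Ai-α4KO BAT 1013, 1014, 932, 1218 and 1518 CPM. Every Ai-α4KO library lay far below the lowest Control library, and the log2 fold change in BAT was -2.85 (SE 0.181, adjusted p = 1.5e-07, edgeR). GENCODE M21 places an antisense gene, Gm16537, over most of Gpd1, and whether the authors' counting used strand is not given in the sources used here.

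By TMM scaling, other genes that handle glycerol phosphate and its precursors moved in both directions. The 8 adipocyte markers had median log2 fold changes of -1.57 in iWAT and -1.56 in BAT by that scaling. These other genes are given by TMM scaling only. Of 11 such genes, 6 were called lower and 2 higher in iWAT, and 5 lower and 3 higher in BAT. Over all genes, 10.7% were called lower and 11.3% higher in iWAT, against 13.3% and 18.2% in BAT. Pcx, pyruvate carboxylase, which supplies oxaloacetate, was lower in iWAT and BAT, with log2 differences of -3.10 and -2.21 (adjusted p = 6.03e-06 and 9.81e-07, edgeR). Gpd2, the mitochondrial enzyme that reoxidizes glycerol-3-phosphate, was lower by -3.01 and -2.50 on the same log2 scale. Aqp7, the glycerol channel of adipocytes, was lower by -1.15 and -1.73, Pdk4, a kinase that inhibits pyruvate dehydrogenase, by -1.60 and -1.31, and Mdh2, mitochondrial malate dehydrogenase, by -1.41 and -1.52. Mdh1, its cytosolic counterpart, was called lower in iWAT (-1.55) and stood at -0.80 in BAT, under the limit on fold. Pck2, the mitochondrial isozyme of Pck1, was not called, with -0.28 in iWAT and -0.86 in BAT, and neither was Gpd1l, a relative of Gpd1, with -0.49 and -0.44.

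Gyk, glycerol kinase, phosphorylates free glycerol and is known for low levels in white adipocytes. It was called higher in both tissues. Gyk had a lowest, median and highest value of 9.76, 12.2 and 17.6 CPM in Control iWAT and of 35.9, 53.4 and 67.5 CPM in Ai-α4KO iWAT, with a log2 difference of 1.99 (adjusted p = 2.28e-05, edgeR). In BAT these values were 63.1, 125 and 169 CPM in Control and 229, 275 and 280 CPM in Ai-α4KO libraries, with a log2 difference of 1.15 (adjusted p = 0.000517, edgeR). The groups did not overlap in either tissue, which 20.7% of all genes in iWAT and 23.5% in BAT showed in the higher direction. Got1, the cytosolic aspartate aminotransferase, was also called higher in both, by 1.37 and 1.77, and Got2, its mitochondrial counterpart, in BAT (1.05) but not in iWAT (0.13). Scaled per transcript length, as FPKM, Gyk over Gpd1 came to 0.00435 in Control and 0.148 in Ai-α4KO iWAT, and to 0.00865 in Control and 0.145 in Ai-α4KO BAT (geometric means of 5 libraries), a ratio within each library that is free of the scaling between libraries.

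**Figure D2:**
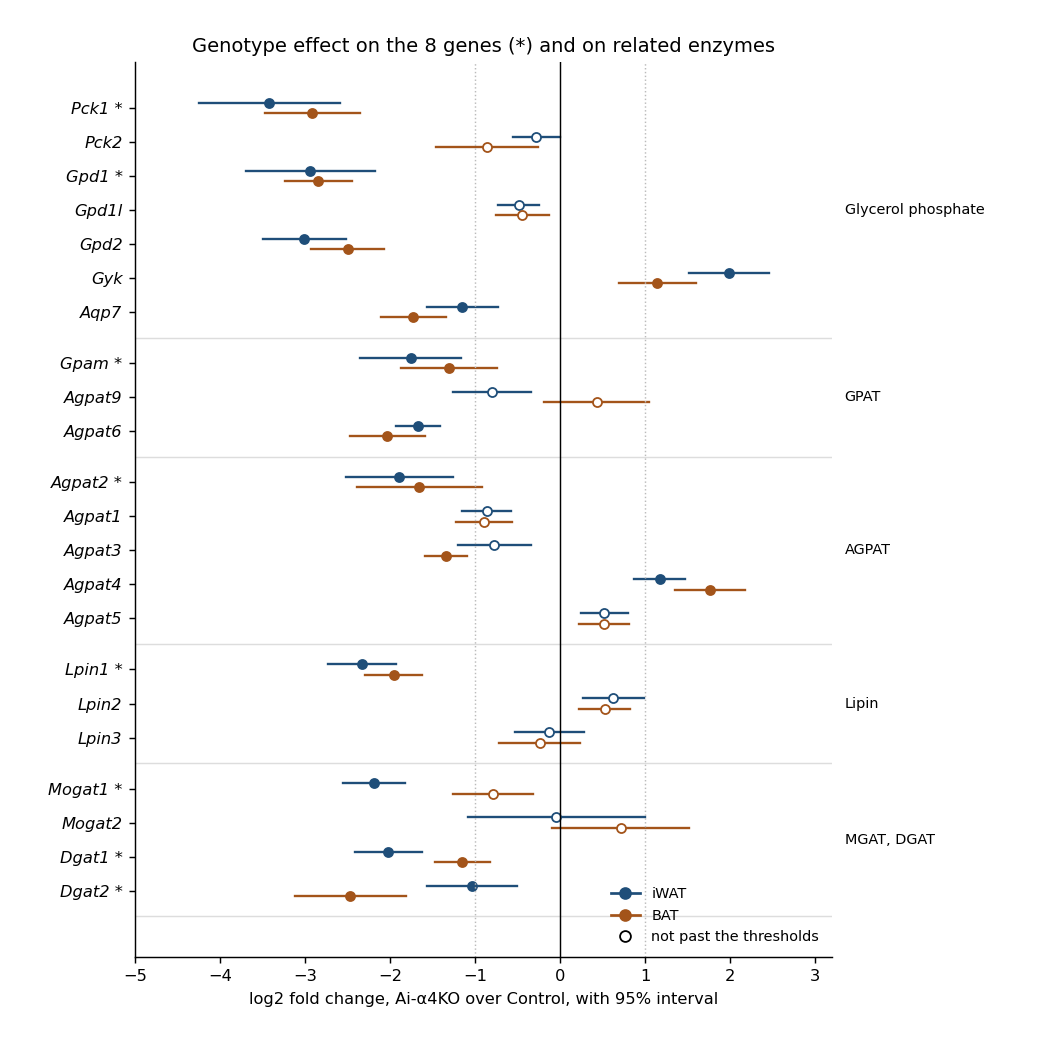
Log2 fold change of Ai-α4KO over Control by TMM scaling with its 95% interval in iWAT and BAT, for the 8 genes (asterisk) and related enzymes, with filled points past both limits. Gyk and Agpat4 lie to the right, while the 8 genes lie to the left, of which Dgat2 in iWAT and Gpam, Dgat1 and Mogat1 in BAT turned positive under the adipocyte marker scaling.

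Gpam encodes the mitochondrial GPAT1 (Entrez 14732, chromosome 19, 55069734 to 55099447), which adds the first acyl chain to glycerol-3-phosphate. In iWAT it was at 114, 148, 112, 163 and 249 CPM in Control and at 52.5, 49.3, 33.5, 66.9 and 30.4 CPM in Ai-α4KO libraries. Control library 5 was the highest, and the lowest Control library stood above the highest Ai-α4KO library. The log2 fold change was -1.76 (SE 0.272, adjusted p = 0.000256, edgeR). In BAT it was at 165, 191, 266, 174 and 200 CPM in Control and at 100, 82.4, 49.9, 133 and 49.5 CPM in Ai-α4KO libraries, or -1.31 on the log2 scale (SE 0.260, adjusted p = 0.000917, edgeR). The gap between the groups was narrow, between Ai-α4KO library 4 and Control library 1.

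Of the other GPAT genes, Agpat6, the older symbol of Gpat4, was called lower in iWAT (-1.67) and BAT (-2.03). Agpat9, the older symbol of Gpat3, was not called, with -0.80 in iWAT and 0.43 in BAT, and Gpat2 did not pass the filter on low counts. The 3 expressed isozymes together summed to 177 ± 28.1 FPKM in Control iWAT (SD, n = 5) and 74.9 ± 12.4 in Ai-α4KO iWAT. In BAT the sum was 164 ± 38.95 in Control and 67.6 ± 17.7 FPKM in Ai-α4KO libraries. Gpam made up 20.4% of the sum in Control and 15.7% in Ai-α4KO iWAT, and 25.3% and 28.4% in BAT. Agpat9 took 28.4% and 42.8% of it in iWAT, and 5.13% and 20.8% in BAT.

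Agpat2, which adds the second acyl chain and whose loss causes generalized lipodystrophy, lies on chromosome 2 from 26593057 to 26604417 (Entrez 67512). It was at 612, 734, 785, 938 and 1171 CPM in Control iWAT and at 337, 219, 132, 311 and 147 CPM in Ai-α4KO iWAT, or -1.89 on the log2 scale (SE 0.287, adjusted p = 0.000229, edgeR). Its values in BAT were 1447, 723, 1692, 454 and 1026 CPM in Control and 352, 251, 263, 359 and 518 CPM in Ai-α4KO libraries, or -1.65 on the log2 scale (SE 0.336, adjusted p = 0.00106, edgeR). This was the one comparison of genotypes among the 8 genes in which the groups overlapped, since Control BAT library 4 lay below Ai-α4KO BAT library 5. On the opposite strand in GENCODE M21, Egfl7 overlaps 64 bases of Agpat2 and Gm20532 covers all of it.

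Among the other genes of this step, Agpat4 was called higher in iWAT (1.17, adjusted p = 3.6e-05) and BAT (1.77, adjusted p = 7.91e-06, both edgeR), with 12.8 ± 2.09 and 29.0 ± 3.43 CPM in Control and Ai-α4KO iWAT and 4.22 ± 0.792 and 14.7 ± 3.21 CPM in BAT (SD, n = 5). Agpat3 was called lower in BAT (-1.34), with -0.77 in iWAT. Agpat1 stood at -0.86 and -0.90, Agpat5 at 0.52 and 0.51, Lclat1 at -0.10 and -0.12 and Abhd5 at -0.56 and -0.30 in iWAT and BAT, none of them called. Agpat2 made up 81.6% of the summed FPKM of Agpat1 to Agpat5 for Control and 61.5% for Ai-α4KO libraries of iWAT, and 74.6% and 66.8% in BAT. The mean Agpat4 share was 1.06% in Control and 7.12% in Ai-α4KO iWAT, against 0.296% and 2.48% in BAT, a minor part of the step in every group.

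Lpin1 encodes lipin-1, the phosphatidic acid phosphatase that yields diacylglycerol and that also acts in the nucleus (Entrez 14245, chromosome 12, 16535669 to 16589770). In iWAT it was at 397, 402, 678, 458 and 578 CPM in Control and at 107, 99.2, 87.2, 124 and 83.7 CPM in Ai-α4KO libraries, or -2.33 on the log2 scale (SE 0.182, adjusted p = 4.03e-06, edgeR). In BAT it was at 700, 734, 796, 1034 and 616 CPM in Control and at 219, 206, 232, 188 and 179 CPM in Ai-α4KO libraries, or -1.96 on the log2 scale (SE 0.154, adjusted p = 6.47e-07, edgeR). The lowest Control library was over 2 times the highest Ai-α4KO library in each tissue. Lpin2 and Lpin3 were not called, with 0.62 and -0.12 in iWAT and 0.52 and -0.24 in BAT. Lpin1 made up 93.8 ± 1.96% of lipin FPKM in Control and 71.3 ± 3.38% in Ai-α4KO iWAT, and 96.3 ± 0.394% and 85.7 ± 2.05% in BAT (SD, n = 5). The lipids' other phosphatases, Ppap2a, Ppap2b and Ppap2c (now Plpp1, Plpp3 and Plpp2), lay between -0.50 and 0.90 on the log2 scale in both tissues, and none was called.

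**Figure D3:**
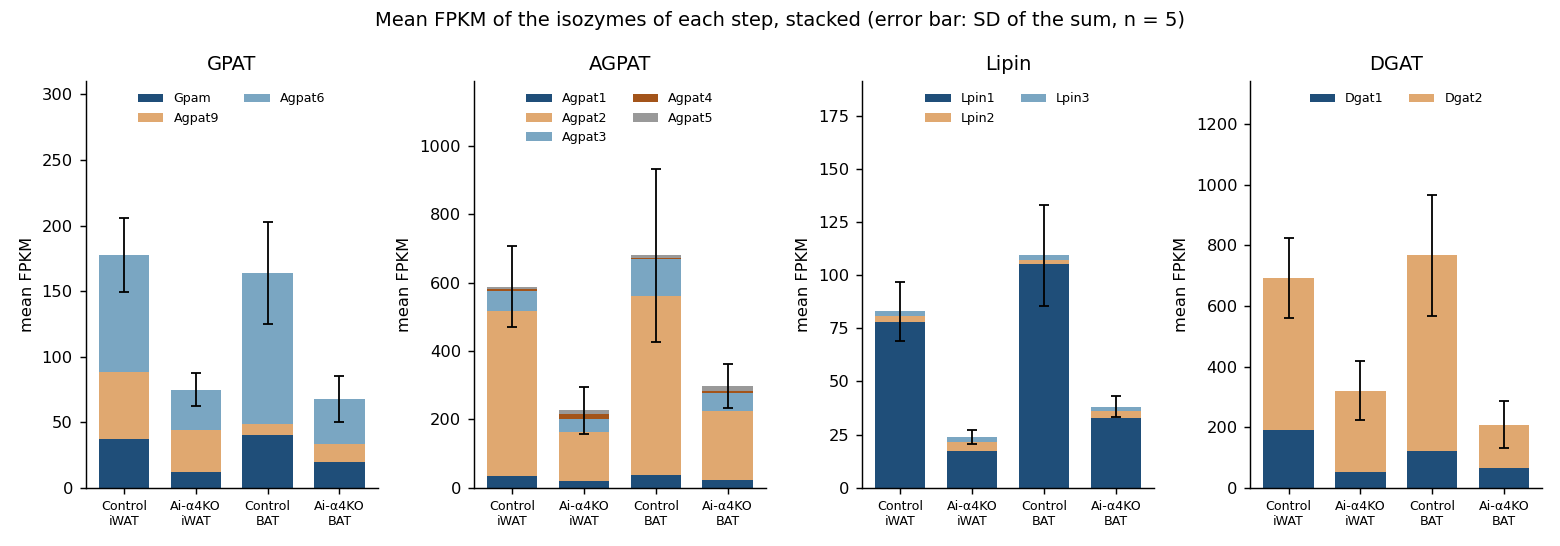
Mean FPKM of the isozymes of each step, stacked, with an error bar for the SD of their sum over 5 libraries per group. The summed transcripts of each step were fewer in Ai-α4KO than in Control libraries by mean FPKM, with sums of 109 and 38.1 FPKM for lipins in BAT, while Agpat9, Agpat4 and Lpin2 took larger shares.

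Mogat1, a monoacylglycerol acyltransferase that makes diacylglycerol without glycerol-3-phosphate (Entrez 68393, chromosome 1, 78511060 to 78538173), had the lowest mean FPKM of the 8 in each group. It was at 32.1, 35.6, 42.2, 38.3 and 41.4 CPM in Control iWAT and at 10.2, 7.43, 6.28, 10.7 and 7.13 CPM in Ai-α4KO iWAT, or -2.19 on the log2 scale (SE 0.166, adjusted p = 3.74e-06, edgeR). Its values in BAT were 13.4, 18.3, 15.5, 13.2 and 14.5 CPM in Control and 12.4, 5.38, 11.6, 8.17 and 6.96 CPM in Ai-α4KO libraries. Ai-α4KO BAT library 1 lay just under the lowest Control library. The log2 difference in BAT was -0.79 (SE 0.218, adjusted p = 0.00743, edgeR), which is under the limit on fold. The expected counts behind these values ran from 198 to 1515 a library. Of the other acyltransferases of this kind, none of 3 tested in iWAT and none of 2 in BAT was called, among them Mogat2 with -0.043 and 0.71. On the opposite strand, BC035947 overlaps 1099 bases of Mogat1.

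Dgat1 and Dgat2 encode unrelated proteins of the endoplasmic reticulum that add the last acyl chain. Dgat1 (Entrez 13350, chromosome 15, 76502015 to 76511818) was at 420, 330, 451, 309 and 350 CPM in Control iWAT and at 112, 81.6, 73.1, 118 and 74.7 CPM in Ai-α4KO iWAT, or -2.02 on the log2 scale (SE 0.179, adjusted p = 7.64e-06, edgeR). In BAT it was at 339, 220, 268, 244 and 305 CPM in Control and at 147, 114, 101, 136 and 138 CPM in Ai-α4KO libraries, or -1.15 on the log2 scale (SE 0.149, adjusted p = 3.38e-05, edgeR). The BAT value fell under the 2-fold limit with library size alone and in the limma fits described below. Under the adipocyte marker scaling it was 0.27. The groups stood apart in both tissues, with the wider gap in iWAT.

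Dgat2 (Entrez 67800, chromosome 7, 99153663 to 99182713) was at 946, 998, 1202, 1339 and 1829 CPM in Control iWAT and at 863, 520, 523, 767 and 413 CPM in Ai-α4KO iWAT, or -1.04 on the log2 scale (SE 0.239, adjusted p = 0.00348, edgeR). This was the smallest change of the 8 in iWAT, and Ai-α4KO library 1 lay just under the lowest Control library. Dgat2 was no longer called when any of Control library 5 or Ai-α4KO libraries 2, 3 or 5 was left out, with log2 fold changes from -0.98 to -0.87. Its values in BAT were 2159, 1150, 2391, 1508 and 2126 CPM in Control and 638, 272, 324, 254 and 255 CPM in Ai-α4KO libraries, or -2.47 on the log2 scale (SE 0.300, adjusted p = 2.08e-05, edgeR). Ai-α4KO BAT library 1 stood apart above the other 4 of its group and below every Control library.

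The balance of these 2 enzymes differed between genotypes in opposite directions. In Control iWAT libraries 1 to 5, Dgat2 over Dgat1 by FPKM was 1.76, 2.36, 2.08, 3.38 and 4.08, and in Ai-α4KO iWAT it was 5.98, 4.97, 5.58, 5.05 and 4.31. In BAT it was 4.97, 4.07, 6.97, 4.82 and 5.43 in Control and 3.39, 1.86, 2.51, 1.45 and 1.44 in Ai-α4KO libraries. The ratio was higher in each Ai-α4KO library than in any Control library of iWAT and lower in each than in any Control library of BAT. How many of all pairs of genes show such a pattern was not counted. Geometric means were 2.60 and 5.15 in iWAT, a log2 difference of 0.99 that ran from 0.84 to 1.15 with single libraries left out. They were 5.17 and 2.01 in BAT, a log2 difference of -1.36 that ran from -1.55 to -1.24. Dgat1 made up 28.2 ± 6.85% of DGAT FPKM in Control and 16.3 ± 1.72% in Ai-α4KO iWAT, against 16.4 ± 2.62% and 33.6 ± 7.94% in BAT (SD, n = 5). These ratios do not depend on how libraries were scaled, and this pair and the other isozyme pairs were chosen after their values were seen, so they are given without a test.

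Of 6 other ratios of paired enzymes, 5 had higher means in Ai-α4KO libraries of both tissues, and Agpat6 over Gpam did not. Agpat4 over Agpat2 had geometric means of 0.0126 in Control and 0.111 in Ai-α4KO iWAT, and of 0.00356 and 0.0354 in BAT. Lpin2 over Lpin1 was 0.0337 and 0.263 in iWAT and 0.0187 and 0.102 in BAT, and Pck2 over Pck1 was 0.00487 and 0.0413 in iWAT and 0.00633 and 0.0299 in BAT. The genotypes did not overlap in any of these pairs. Single genes did not overlap in 18.4% of cases in the lower and 20.7% in the higher direction in iWAT. In BAT these shares were 24.2% and 23.5%, and the share over all pairs of genes was not counted. Agpat9 over Gpam was 1.40 and 2.77 in iWAT without overlap and 0.202 and 0.727 in BAT with overlap. Agpat6 over Gpam was 2.53 and 2.68 in iWAT and 2.80 and 1.82 in BAT, and its groups overlapped in both tissues.

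**Figure D4:**
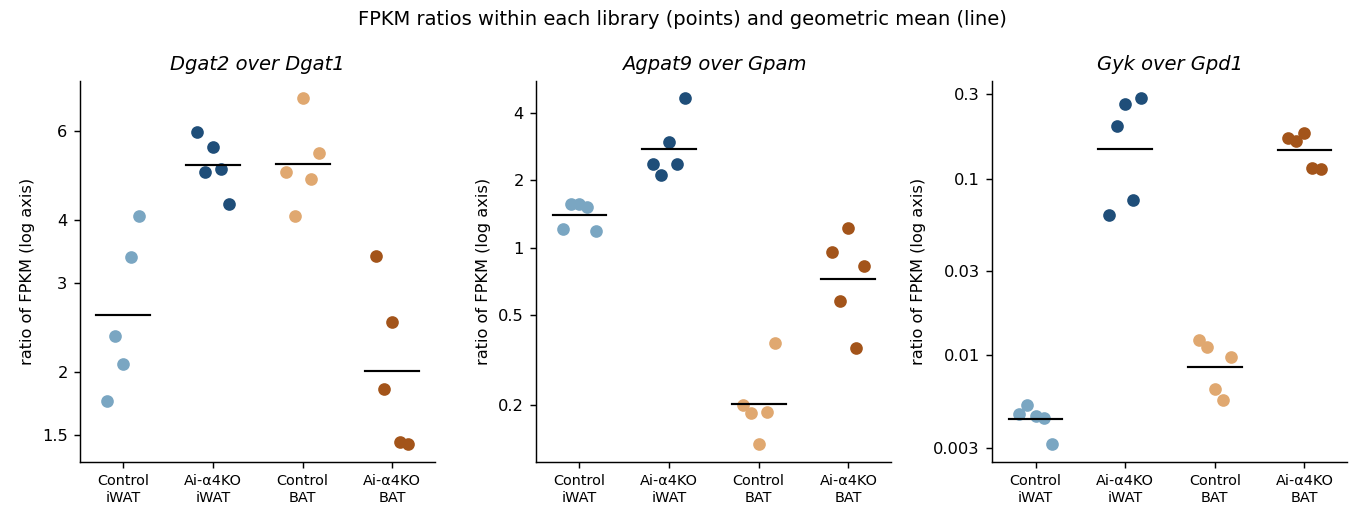
Ratio of FPKM within each library (points, log axis) and geometric mean (line) in each group of 5, for Dgat2 over Dgat1, Agpat9 over Gpam and Gyk over Gpd1. Dgat2 over Dgat1 was higher in Ai-α4KO iWAT (5.15 against 2.60) and lower in Ai-α4KO BAT (2.01 against 5.17), while the other ratios had higher means in Ai-α4KO libraries of both tissues.

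Whether the genotype effect differed between tissues was tested with an interaction term over the 20 libraries, where a positive value means less reduction in BAT. Of the 8 genes, 1 was called, against 3.26% of 15230 genes in the positive and 1.6% in the negative direction. It was Mogat1, with a log2 difference of 1.43 (SE 0.282, adjusted p = 0.00318, edgeR), and without Control iWAT libraries 1 and 4 the value was 1.61 (adjusted p = 0.00383, edgeR). Under the adipocyte marker scaling it was 1.05 (adjusted p = 0.0563, edgeR) and no longer called. Dgat1 had 0.90 (adjusted p = 0.0145) and Dgat2 -1.39 (adjusted p = 0.0248, both edgeR), which miss the limit of 0.01 and have 95% intervals of 0.42 to 1.38 and -2.22 to -0.56. Both passed under DESeq2, with adjusted p of 0.00129 and 0.00869. Under the adipocyte marker scaling the value of Dgat1 was 0.62 and that of Dgat2 was -1.82. For Pck1, Gpd1, Gpam, Agpat2 and Lpin1 the adjusted p lay between 0.247 and 0.847 (edgeR), with the interval for Pck1 running from -0.39 to 1.48 and that for Gpd1 from -0.66 to 0.91.

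In Control libraries the tissues themselves differed in 2 of the 8 genes, against 7.22% of 14260 genes called higher and 14.7% called lower in BAT. Gpd1 was higher in BAT than in iWAT by a log2 difference of 2.05 (adjusted p = 7.76e-06), and Mogat1 was lower by -1.37 (adjusted p = 9.44e-06, both edgeR). For Pck1 the difference was -0.012 with a 95% interval of -0.64 to 0.61. The others ranged from -0.47 for Dgat1 (adjusted p = 0.0261, edgeR) to 0.59 for Lpin1 (adjusted p = 0.0197, edgeR) and were not called. In Ai-α4KO libraries 2 of the 8 were called higher in BAT, against 8.4% of 14703 genes called higher and 3.09% called lower. Gpd1 was higher by 2.26 (adjusted p = 0.000747) and Lpin1 by 1.08 (adjusted p = 0.000248, both edgeR). Mogat1 differed by 0.14 with an interval of -0.41 to 0.68, and Dgat2 by -0.78 (adjusted p = 0.0539, edgeR). These comparisons use the same libraries as the genotype comparisons.

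Levels of different genes were compared only by FPKM, which divides by transcript length. In Control iWAT the order of means was Pck1 (1542 ± 667), Gpd1 (604 ± 82.0), Dgat2 (504 ± 142), Agpat2 (484 ± 126), Dgat1 (190 ± 25.9), Lpin1 (78.1 ± 14.4), Gpam (37.0 ± 13.6) and Mogat1 (28.2 ± 2.25 FPKM, SD, n = 5). The ranges of Gpd1 and Dgat2 overlapped, as did those of Dgat2 and Agpat2 and of Gpam and Mogat1, and the other neighbours in that order did not overlap. In Ai-α4KO iWAT Dgat2 came first at 269 ± 85.3, ahead of Pck1 at 160 ± 62.2, Agpat2 at 143 ± 59.6 and Gpd1 at 87.1 ± 46.2 FPKM, and each overlapped with the next. In Control BAT Gpd1 led with 2226 ± 286, followed by Pck1 with 1371 ± 187 and Dgat2 with 645 ± 182 FPKM, without overlap between them. Ai-α4KO BAT kept Gpd1 (372 ± 74.5) and Pck1 (219 ± 92.2) in front, and Dgat2 (142 ± 72.0) came after Agpat2 (201 ± 61.2 FPKM), with overlap among neighbours down to Dgat2.

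Scaling decided how many of the 8 genes were called. When libraries were scaled so that the mean log2 CPM of the 8 adipocyte markers was equal in all of them, the median of all genes rose to 1.74 in iWAT and 1.38 in BAT on the log2 scale, and the calls over all genes were 102 lower and 11064 higher in iWAT, against 1559 and 1656 by TMM. In BAT they were 174 lower and 9459 higher, against 1910 and 2614. On this scale Pck1 was still called lower in each tissue, with -1.79 in iWAT and -1.55 in BAT (adjusted p = 6.04e-05 and 0.000143, edgeR). So was Gpd1, with -1.34 and -1.37 (adjusted p = 6.8e-05 and 0.000951, edgeR). Dgat2 was called lower in BAT (-1.18, adjusted p = 0.000855, edgeR) and had 0.64 in iWAT (adjusted p = 0.0063, edgeR), under the limit on fold. Gpam stood at -0.077 and 0.093, Agpat2 at -0.26 and -0.19, Lpin1 at -0.61 and -0.55, Dgat1 at -0.35 and 0.27 and Mogat1 at -0.51 and 0.54 in iWAT and BAT, none of them called. Among these, Lpin1 in iWAT passed the limit on p (adjusted p = 0.00923, edgeR) and missed the limit on fold. Log2 fold changes of genes outside the 8 are given by TMM scaling only.

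**Figure D5:**
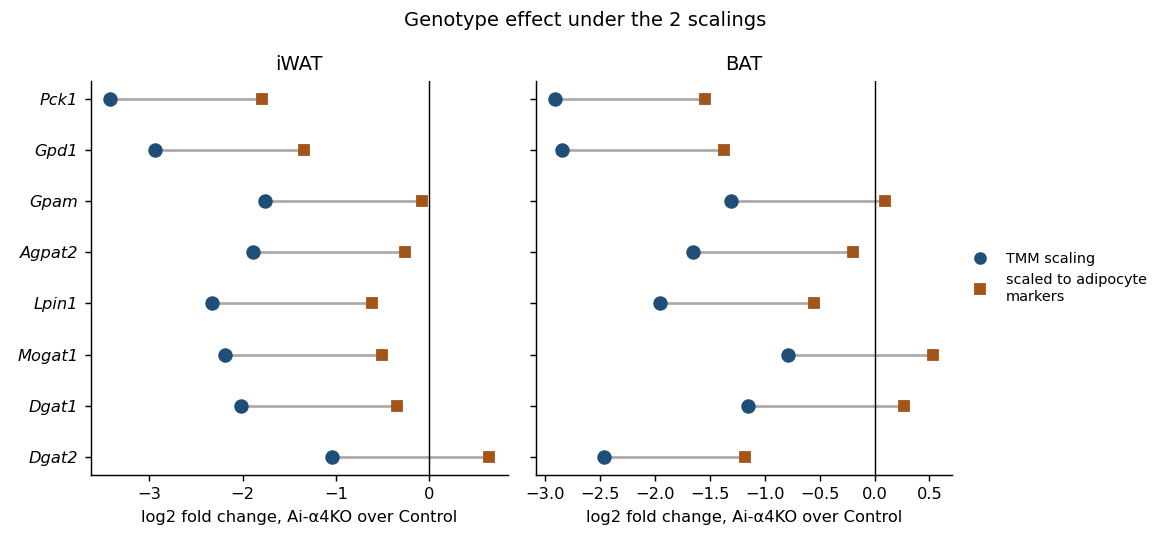
Log2 fold change of Ai-α4KO over Control for each gene in iWAT and BAT by TMM scaling (circles) and with libraries scaled to 8 adipocyte markers (squares). Every square lies to the right of its circle; Pck1 and Gpd1 stay under -1 in both tissues and Dgat2 in BAT, while Dgat2 in iWAT and Gpam, Dgat1 and Mogat1 in BAT pass to the right of 0.

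Genes that help triglyceride into storage and the branch that leads to phospholipids were counted in the same way, by TMM scaling only. By that scaling the 8 adipocyte markers had median log2 fold changes of -1.57 in iWAT and -1.56 in BAT. Of the storage genes, 2 of 3 tested were called lower in iWAT and 1 of 4 higher in BAT. Bscl2, which encodes seipin, was called lower in iWAT (-1.16), as was Fitm2, a protein of lipid droplet formation (-1.21), and they stood at -0.92 and -0.91 in BAT under the limit on fold. Fitm1, a relative made in skeletal muscle, was called higher in BAT (2.24), where the skeletal muscle markers given above were also higher. Of 16 genes tested in the phospholipid branch, 4 were called lower and 1 higher in iWAT, with a median of -0.01, and 6 were called lower and 1 higher in BAT, with a median of -0.47. Over all genes, 10.7% were called lower and 11.3% higher in iWAT, and 13.3% and 18.2% in BAT. Chpt1, Crls1 and Pcyt2 were called lower in both tissues, among them Pcyt2 by -1.51 and -1.37, and Pcyt1b was called higher in both.

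Of 14 regulators known to act on these genes, 8 were called lower and 1 higher in iWAT, and 5 lower and 1 higher in BAT, against 10.7% lower and 11.3% higher over all genes in iWAT and 13.3% and 18.2% in BAT. The regulators are given by TMM scaling only. By that scaling the 8 adipocyte markers had median log2 fold changes of -1.57 in iWAT and -1.56 in BAT. Pparg, the nuclear receptor that directs the adipocyte program, was lower by -1.38 and -1.63, and Cebpa, its partner, by -1.65 and -1.84 in iWAT and BAT. Mlxipl, which encodes the glucose-responsive factor ChREBP, was lower by -2.13 and -2.04, Ppara by -2.77 and -2.55 and Ppargc1b by -1.81 and -2.75. Srebf1, which encodes the lipogenic factor SREBP-1, was called lower in iWAT (-1.59) and had -0.91 in BAT (adjusted p = 0.0117, edgeR). Ppargc1a was called lower in iWAT (-1.998) and had -0.15 in BAT, and Rxra was called lower in iWAT (-1.02) with -0.30 in BAT. Cebpb was called higher in iWAT (1.01) and Cebpd in BAT (1.53). Creb1, Crtc2, Nr1h3 and Nr3c1 were not called in either tissue, with values between -0.66 and 0.60.

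Across libraries the 8 genes did not all vary together. Over all 20 libraries Pearson's r of log2 CPM was 0.955 between Dgat1 and Pck1 and 0.938 between Lpin1 and Gpd1, values that hold the differences between groups. With group means removed, r stayed at 0.769 for Dgat1 and Pck1, 0.734 for Dgat1 and Gpd1 and 0.712 for Agpat2 and Gpd1, and was 0.365 for Lpin1 and Gpd1 and 0.023 for Agpat2 and Lpin1. Dgat2 followed the mean of the adipocyte markers within groups (r = 0.789), more closely than Agpat2 (r = 0.187). These r are descriptions over 20 libraries, in which the 5 of a group have tissue and genotype in common and the 2 values of a point come from the same library.

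The genes whose log2 CPM ran most like each of the 8, by Pearson's r over the 20 libraries and among 13974 genes tested in both tissues, are given by name. Pck1 ran with Sod1 (0.976), Fbxo21 (0.973) and Mccc2 (0.971), and Gpd1 with Cpt2 (0.989), Kcnk3 (0.989) and Ldhd (0.988). Gpam ran with Trak1 (0.959), Cul4a (0.948) and Aox1 (0.940), and Agpat2 with Tlcd1 (0.95), Fam69b (0.940) and Mmab (0.937). Lpin1 ran with Sugct (0.978), Slc25a35 (0.974) and Pcca (0.974), and Mogat1 with Car3 (0.964), 1600014C10Rik (0.955) and Napepld (0.955). Dgat1 ran with Apmap (0.972), Pcx (0.966) and Mccc1 (0.964). Dgat2 ran with Nadk (0.958), Irs3 (0.954) and Ppp2r5d (0.941). No gene was among the first 3 of more than 1 of the 8.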

How the data were processed

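Paired reads of 150 bp from stranded mRNA libraries were processed by the authors, and the submitters' processing notes name STAR 2.5.3a, bcl2fastq 2 and mm10. How reads were assigned to genes, and whether by strand, is not given in the sources used here. The authors deposited an expected count per gene and library without normalization (77.3% of nonzero values are whole within 0.001) and an FPKM per gene and library, with the transcript width in bases as another column.

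Expected counts were rounded, filtered by filterByExpr, normalized by TMM and fitted within each comparison in R 4.3.3 with edgeR 4.0.16 (glmQLFit and glmQLFTest, Benjamini-Hochberg over all genes). A call needed an adjusted p below 0.01 together with a change of 2-fold or more, and for interactions the p alone. FPKM entered ratios, shares and the order of levels. The genes and lists were chosen with earlier results of these data known. Named genes are the 8, members of the lists of related enzymes and regulators, Igbp1 and the 3 genes most like each of the 8. In data simulated with 200 changed genes, 199 were recovered in iWAT (14604 genes) and 196 in BAT (14344 genes), both with 0 false calls, and 189 with 4 false calls in the interaction (15230 genes). Those simulations gave every gene the same dispersion and only changes beyond the 2-fold limit. They do not show how genes with a wider spread, or changes near that limit, would fare. Alternatives were DESeq2 1.42.0, limma 3.58.1 on log2(FPKM + 1) and log2(FPKM + 0.1), library size alone, scaling to adipocyte markers, no filter, an adjusted p below 0.05, a fit of all libraries, a replicate block and leaving out each library.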

Additional observations from a re-analysis of the deposited data

Results flagged for a closer look

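Dgat2 in Ai-α4KO BAT had 1 library far from the others: library 1 held 638 CPM and the other 4 held 254 to 324, a gap of 0.815 of the group's range. Of 32 groups of 5 libraries examined this way, 1 passed the limit of 0.71, and chance gives about 1 in 20. That library also had the highest sum of adipocyte markers in its group, 17164 CPM against 13623 to 15845, and the part of this in the value was not tested. Without it the interaction for Dgat2 was -1.62 (adjusted p = 0.00635) and the difference between the tissues in Ai-α4KO libraries was -1.10 (adjusted p = 0.00444, both edgeR's quasi-likelihood test), each then past the limits.

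Mogat1 differed between the tissues in its genotype effect, by 1.43 on the log2 scale in the interaction test (adjusted p = 0.00318), which was 1.05 and no longer called with adipocyte marker scaling (adjusted p = 0.0563, both edgeR's quasi-likelihood test). Its values were 4.56-fold lower in iWAT and 1.73-fold lower in BAT by TMM scaling, of which the latter missed the limit on fold and turned to 0.54 on the log2 scale with adipocyte marker scaling. The log2 ratio of Dgat2 over Dgat1 differed between genotypes by 0.99 for iWAT and -1.36 for BAT, with each Ai-α4KO library above all Control libraries in the one and below them in the other, and this difference between tissues was not tested as a ratio. The share of all pairs of genes with such a pattern was not counted.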

How the results depend on the processing

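Of the 8 genes, 8 were called in iWAT and 7 in BAT. With libraries scaled to adipocyte markers these counts were 2 and 3, and Dgat2 in iWAT (0.64), Gpam (0.093), Dgat1 (0.27) and Mogat1 (0.54) in BAT and the Gpd1 interaction (-0.031) changed sign. That scaling sets the mean of the 8 markers to no change, and of these 7 were called lower in iWAT and 5 in BAT by TMM. Under the other settings that keep all libraries, the counts were 7 or 8 in iWAT and 6 to 8 in BAT, where library size alone and both limma fits brought Dgat2 in iWAT and Dgat1 in BAT under the 2-fold limit. With single libraries left out, 7 to 8 genes were called in iWAT and 7 in BAT. The interaction count was 1, and it was 3 under DESeq2, 2 under limma, 3 at an adjusted p below 0.05 and 1 to 2 with single libraries left out, the higher count coming without Ai-α4KO iWAT library 1 or 4 or BAT library 3 (Dgat1) or BAT library 1 (Dgat2). Control tissues gave 2 calls, and 4 at an adjusted p below 0.05 without a fold limit. Ai-α4KO tissues gave 2 calls, 1 with library size alone, 1 under limma, 4 at an adjusted p below 0.05 without a fold limit and 2 to 3 with single libraries left out. Between Control tissues the Pck1 difference of -0.012 changed sign under DESeq2 (0.014) and no filter (0.023) and ranged from -0.19 to 0.19 with single libraries left out. Between Ai-α4KO tissues Mogat1 turned to -0.028 with library size alone and -0.040 under limma. The log2 difference of Agpat6 over Gpam in iWAT, 0.087, ran from -0.091 to 0.26 with single libraries left out. The cause of these moves was not tested.

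Same-numbered libraries deviated together in no consistent way, with correlations from -0.45 to 0.13 between genotypes in iWAT, from -0.15 to 0.22 between genotypes in BAT, from -0.081 to 0.22 between Control tissues and from -0.27 to 0.24 between Ai-α4KO tissues. The numbers were therefore not taken to pair the samples, and whether tissues of 1 number share a mouse is not stated in the labels. With the replicate number as a block, 7 genes were called in iWAT (Dgat2 had an adjusted p of 0.0155), 7 in BAT and 3 in the interaction, which added Dgat1 (0.92) and Dgat2 (-1.42), and Pck1 between Control tissues was 0.11. All genes called lower in the interaction numbered 244, and 150 with the block.

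Counts over all genes that moved by over 1.5 times were, for lower calls in iWAT, 1559 against 779 under limma on log2(FPKM + 1). For lower calls in BAT they were 1910 against 1265 with library size alone (3251 higher, against 2614), 807 under limma on log2(FPKM + 1) and 1205 under limma on log2(FPKM + 0.1). At an adjusted p below 0.05 without a fold limit, 3824 were lower and 4161 higher in iWAT and 4573 lower and 4461 higher in BAT. Interaction calls were 244 lower and 496 higher, against 380 and 1262 under DESeq2, 115 and 604 with library size alone, 22 and 12 under marker scaling, 130 lower without a filter, 865 and 1432 at an adjusted p below 0.05, and 93 to 264 lower and 309 to 853 higher with single libraries left out, with 68 lower without Control iWAT libraries 1 and 4. Between Control tissues 2092 were lower and 1030 higher, against 1241 and 532 under limma, 2496 and 740 with library size alone and 3919 and 3409 at an adjusted p below 0.05. Between Ai-α4KO tissues 454 were lower and 1235 higher, against 772 and 1024 with library size alone, 2578 and 2813 at an adjusted p below 0.05, and 278 to 559 lower with single libraries left out.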
